A study of Mus musculus with 8 samples.

Results

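This report covers 10 genes of glycerophospholipid synthesis and acyl-chain remodelling, *Gpam*, *Agpat2*, *Lpin1*, *Lpin2*, *Chka*, *Pcyt1a*, *Pcyt2*, *Pemt*, *Lpcat3* and *Mboat7*, in the livers of mice with and without hepatocyte *Rbfox2*. The genes were taken by their GRCm38 symbols from a table of 46078 genes, and all 10 were found. Poly(A) RNA-seq was available for 8 livers, 1 library each. LWT mice carried *Rbfox2* LoxP/LoxP alleles and no Alb_cre (n = 4, labelled wild-type), and LΔRbfox2 mice carried the same *Rbfox2* LoxP/LoxP alleles together with Alb_cre (n = 4, labelled Rbfox2 knockout). The albumin promoter drives Cre in hepatocytes, and *Rbfox2* in the other liver cells was not measured on its own. All mice received a control (chow) diet, and the livers were taken after 16 h of fasting. The labels give 12 weeks on the diet, which the methods start at 8 weeks of age, and the methods give male mice as the default and a longer time on diet. RBFOX2 is a splicing factor, and the comparison asks which mRNA levels differ in a liver whose hepatocytes lack it.

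Membrane glycerophospholipids are built from glycerol-3-phosphate. Acyltransferases add fatty acids to give phosphatidate, lipins remove its phosphate to give diacylglycerol, and the CDP-choline and CDP-ethanolamine routes (the Kennedy pathway) attach a head group to make phosphatidylcholine and phosphatidylethanolamine. The liver also makes phosphatidylcholine by methylating phosphatidylethanolamine, and it uses phosphatidylcholine for bile and for the coat of secreted lipoproteins. Remodelling enzymes then exchange acyl chains, which sets how much polyunsaturated fatty acid the membranes hold.

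RBFOX proteins bind the RNA element UGCAUG, written here as TGCATG. The element was searched on the sense strand of the annotated mRNA with the longest coding sequence of each gene (GENCODE M21, GRCm38). It occurred in 6 of the 10 mRNAs (60.0%), at 12 positions in all, or 0.369 per kb. Of 12143 tested protein-coding genes, 6485 (53.4%) had an mRNA with the element, at 0.279 per kb. *Gpam* held 5 copies, *Pcyt1a* and *Chka* held 2 each, and *Pemt*, *Lpcat3* and *Mboat7* held 1 each, while *Pcyt2*, *Agpat2*, *Lpin1* and *Lpin2* held none. Introns, where RBFOX proteins often bind, were not searched. One copy of each of the 6 mRNAs is shown with 10 bases on either side, to show where in these messages the letters lie. Capitals mark the element and coordinates give its first and last base:
Gpam, coding sequence, exon 16, chr19:55078476-55078481, minus strand: gatgtcgtcaTGCATGctattcagct
Pcyt1a, 3′ UTR, exon 9, chr16:32473489-32473494, plus strand: gttctctcagTGCATGtcacccaggt
Chka, 3′ UTR, exon 12, chr19:3893682-3893687, plus strand: gccttttggcTGCATGgctacagctt
Pemt, coding sequence, across the junction of exons 5 and 6, chr11:59971254-59974068, minus strand: tgggcactcaTGCATGctagtcccac
Lpcat3, coding sequence, exon 8, chr6:124702257-124702262, plus strand: ctggttccgcTGCATGtacatgctga
Mboat7, coding sequence, exon 8, chr7:3678645-3678650, minus strand: cgactacatgTGCATGggctttgtgc
The *Pemt* letters come together only after splicing, so that span includes the intron. A match describes the sequence alone and was not tested for binding.

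Promoters, here the 250 bases before an annotated start (RefSeq, GRCm38.p6), were available for 15 starts of 9 members. Both strands were searched for the E-box CACGTG, bound by clock factors among others, and for the sterol regulatory element TCACNCCAC, bound by SREBP factors. The E-box was present in 6.02% of 32851 mouse promoters and in 1 member promoter, that of *Lpin2*. The sterol element was present in 1.05% of promoters and, among the members, in *Pcyt1a*, at 1 position shared by a pair of overlapping starts. CCAAT (33.8% of promoters) occurred in 5 of the 15 member promoters and GGGCGG (32.7%) in 9. Both promoters with a rarer element are shown, with that element in capitals:
Lpin2, chr17:71183282-71183531, plus strand, E-box in capitals: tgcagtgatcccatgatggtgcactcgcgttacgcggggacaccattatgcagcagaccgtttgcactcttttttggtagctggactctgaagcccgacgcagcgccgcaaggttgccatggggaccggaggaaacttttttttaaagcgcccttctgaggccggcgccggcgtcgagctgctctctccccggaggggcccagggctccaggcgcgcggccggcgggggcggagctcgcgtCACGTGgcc
Pcyt1a, chr16:32430671-32430920, plus strand, sterol element in capitals: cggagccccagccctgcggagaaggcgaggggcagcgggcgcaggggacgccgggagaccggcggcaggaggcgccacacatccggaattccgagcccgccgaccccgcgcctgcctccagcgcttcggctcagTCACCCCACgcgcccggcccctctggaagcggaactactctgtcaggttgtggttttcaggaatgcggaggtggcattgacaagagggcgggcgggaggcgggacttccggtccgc

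Libraries held 37482458 to 56177588 counts, and 3 counts corresponded to 0.0468 to 0.0929 CPM (counts scaled to the size of each library), far below every value of the 10 members. *Rbfox2* was measured at 17.1, 10.4, 11.4 and 18.3 CPM in LWT livers 1 to 4 and at 4.61, 6.09, 2.24 and 3.19 CPM in LΔRbfox2 livers 1 to 4. The genotypes did not overlap, in the direction the labels give, with a log2 fold change of -1.82 (edgeR adjusted p = 0.504, DESeq2 adjusted p = 2.96e-04). LΔRbfox2 livers 3 and 4 stood apart in composition, with TMM scaling factors of 0.724 and 0.776 against 1.022 to 1.141 in the others. The defining hepatocyte markers were present in every liver, at a summed 43296 to 63501 CPM in LWT and 48196 to 68602 CPM in LΔRbfox2 livers. Kupffer cell markers summed to 62.6 to 108 CPM in LWT and 36.2 to 69.965 CPM in LΔRbfox2 livers, with 5 of 6 lower. Endothelial markers were also lower in 5 of 6, stellate markers in 4 of 6, hepatocyte markers in 3 of 6 and cholangiocyte markers in 0 of 4. Of all genes, 51.6% had a log2 fold change below 0. The part of these cells in the results was not tested, and in whole liver fewer cells of a type and less RNA per cell cannot be told apart.

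All 10 members passed the filter on low counts, and each was detected in every liver. None of the 10 differed between genotypes at an adjusted p of at most 0.05 (edgeR quasi-likelihood test, Benjamini–Hochberg adjustment over 13856 genes), and neither did any gene tested (0%). DESeq2 called 9 of 23751 genes (0.0379%), none of them a member. At an unadjusted p under 0.05, edgeR, DESeq2 and limma-voom each gave 1 member, *Lpin2*, lower in LΔRbfox2 livers. Of all genes, 9.79% met that limit in edgeR, 6.93% in DESeq2 and 7.07% in limma-voom. In edgeR 1.83% of genes met it and were lower, and 7.95% met it and were higher, where no member did. The fitted log2 fold change was below 0 for 8 members and above 0 for *Pemt* and *Agpat2*, where 51.6% of all genes were below 0. The members' median was -0.25, and that of all genes was -0.015. For none of the 10 members were the genotypes without overlap, which held for 2.28% of all genes (1.05% higher and 1.23% lower in LΔRbfox2 livers).

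**Figure D1:**
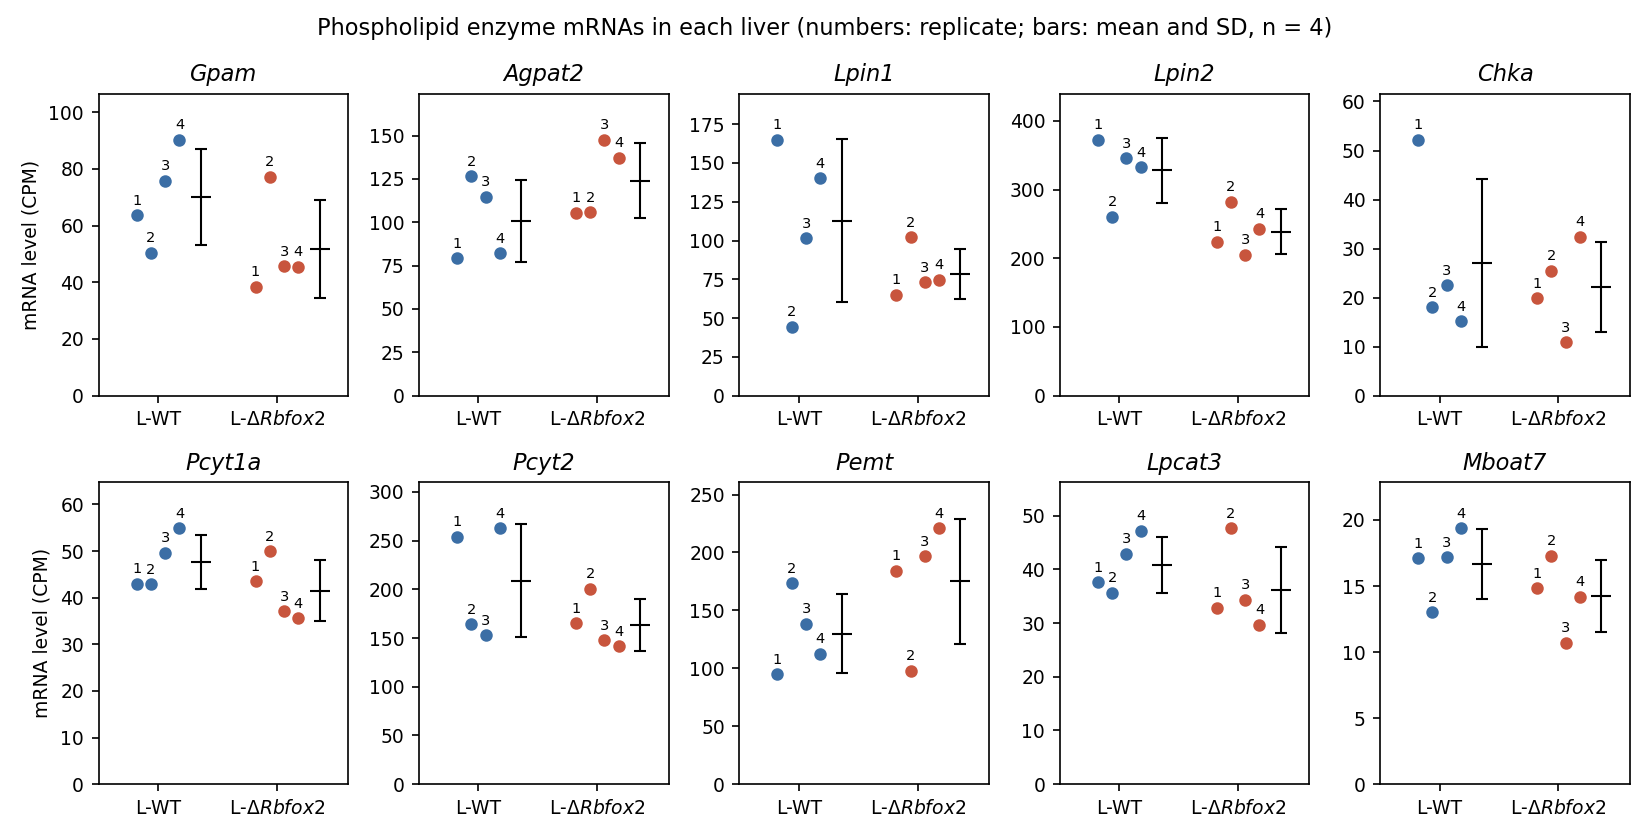
mRNA level (CPM) of the 10 enzymes in each liver, with LWT in blue, LΔRbfox2 in red, replicate numbers above the points, and black bars for the mean and SD of 4 livers. The genotypes overlap in every panel, and the LΔRbfox2 livers of *Lpin2* lie at 205 to 283 CPM against 261 to 373 CPM in LWT livers.

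*Gpam* encodes the mitochondrial glycerol-3-phosphate acyltransferase that makes lysophosphatidate, the first acylated intermediate. Its level was 63.6, 50.4, 75.8 and 90.4 CPM in LWT livers 1 to 4 and 38.5, 77.2, 45.6 and 45.5 CPM in LΔRbfox2 livers 1 to 4. LΔRbfox2 livers 1, 3 and 4 lay below every LWT liver, and LΔRbfox2 liver 2 lay above all LWT livers but liver 4. The log2 fold change was -0.44 (limma-voom SE 0.25, 95% interval -1.03 to 0.10), with an adjusted p of 0.546 in edgeR. Without LΔRbfox2 liver 2 it was -0.70, with an adjusted p of 0.111, the smallest for any member under any setting tried, and without LWT liver 4 it was -0.29.

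*Agpat2* encodes the main acyltransferase for the next step, from lysophosphatidate to phosphatidate, and its loss causes lipodystrophy with fatty liver. Its level was 79.2, 127, 115 and 82.1 CPM in LWT livers and 105, 106, 148 and 137 CPM in LΔRbfox2 livers, in replicate order. All 4 LΔRbfox2 livers lay above the LWT mean of 101 ± 23.7 CPM (SD, n = 4), but LWT livers 2 and 3 lay among them. It had a log2 fold change of 0.30 (SE 0.21, 95% interval -0.15 to 0.79), with an edgeR adjusted p of 0.577. It was 0.18 without LWT liver 1 or without LΔRbfox2 liver 3.

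*Lpin1* and *Lpin2* encode phosphatidate phosphatases, which supply diacylglycerol for both the Kennedy pathway and triglyceride synthesis. LPIN1 also acts in the nucleus as a coactivator in the fasting response. *Lpin2* was at 373, 261, 345 and 333 CPM in LWT livers and at 224, 283, 205 and 243 CPM in LΔRbfox2 livers. All 4 LΔRbfox2 livers were below the LWT mean of 328 ± 47.9 CPM (SD, n = 4), and the ranges met only where LWT liver 2 lay below LΔRbfox2 liver 2. The LΔRbfox2 mean, 239 ± 33.0 CPM, was 72.8% of the LWT mean. Its log2 fold change was -0.46 (SE 0.18, 95% interval -0.85 to -0.06), with an unadjusted p of 0.0279 and an adjusted p of 0.504 in edgeR. *Lpin2* was thus the one member whose unadjusted 95% interval left out 0, and the exact two-sided permutation test over the 8 livers gave p = 0.0571, where the smallest it can give is 0.0286. Its unadjusted edgeR p rose above 0.05 when any of LWT livers 1, 3 and 4 or LΔRbfox2 livers 1 and 3 was left out (0.0578 to 0.0705, with log2 fold changes of -0.45 to -0.41). That p was 0.105 under the replicate block, 0.0656 with 1 surrogate variable and 0.125 after the gene length correction.

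*Lpin1* was at 165, 44.4, 101 and 140 CPM in LWT livers and at 65.0, 102, 73.1 and 74.7 CPM in LΔRbfox2 livers. The LWT livers spanned the whole range, with both the highest and the lowest of the 8 values. Its coefficient of variation was 46.6% in LWT and 20.5% in LΔRbfox2 livers. Its log2 fold change was -0.52 in edgeR, the lowest of the 10 members there, with an adjusted p of 0.572. In limma-voom it was -0.39 (SE 0.37, 95% interval -1.20 to 0.43), nearer 0 than that of *Gpam* or *Lpin2*. It was -0.78 without LWT liver 2 and -0.30 without LWT liver 1.

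*Chka* encodes choline kinase alpha, the first enzyme of the CDP-choline route. It was at 52.2, 18.0, 22.5 and 15.2 CPM in LWT livers and at 19.9, 25.5, 10.9 and 32.4 CPM in LΔRbfox2 livers. LWT liver 1 was above the other 7 livers, in which the genotypes interleaved. *Chka* varied more among LWT livers than any other member, with a coefficient of variation of 63.2%. Its log2 fold change was -0.28 in edgeR, with an adjusted p of 0.763, and -0.21 in limma-voom (SE 0.42, 95% interval -1.15 to 0.73). In edgeR it turned to 0.23 without LWT liver 1. Without any other single liver it lay between -0.52 (LΔRbfox2 liver 4) and -0.093 (LΔRbfox2 liver 3).

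*Pcyt1a* encodes CTP:phosphocholine cytidylyl-transferase alpha, the rate-limiting enzyme of the CDP-choline route. It was among the steadiest members, at 43.0, 42.8, 49.7 and 54.9 CPM in LWT livers and 43.5, 49.9, 37.1 and 35.6 CPM in LΔRbfox2 livers. LΔRbfox2 livers 3 and 4 were the lowest of the 8, and the other LΔRbfox2 livers lay within the LWT range. Between genotypes the log2 fold change was -0.20 (SE 0.17, 95% interval -0.58 to 0.18), with an edgeR adjusted p of 0.63. It was -0.12 without LWT liver 4, -0.13 without LΔRbfox2 liver 4 and -0.30 without LΔRbfox2 liver 2.

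*Pcyt2* encodes CTP:phosphoethanolamine cytidylyl-transferase, its counterpart in the CDP-ethanolamine route. It was at 254, 164, 153 and 263 CPM in LWT livers and at 165, 201, 148 and 142 CPM in LΔRbfox2 livers. LWT livers 1 and 4 were above all others, and LWT livers 2 and 3 lay within the LΔRbfox2 range. All LΔRbfox2 livers were below the LWT mean of 209 ± 58.0 CPM (SD, n = 4). *Pcyt2* had a log2 fold change of -0.35 (SE 0.23, 95% interval -0.83 to 0.18), with an edgeR adjusted p of 0.566, and -0.22 without LWT liver 4.

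*Pemt* encodes phosphatidylethanolamine N-methyltransferase, the liver enzyme that turns phosphatidylethanolamine into phosphatidylcholine with methyl groups from S-adenosylmethionine. It was at 95.2, 173, 138 and 113 CPM in LWT livers and at 184, 97.8, 197 and 221 CPM in LΔRbfox2 livers. LΔRbfox2 livers 1, 3 and 4 lay above every LWT liver, while LΔRbfox2 liver 2 was the lowest but one of the 8. Means were 129.9 ± 33.9 CPM in LWT and 175 ± 53.6 CPM in LΔRbfox2 livers (SD, n = 4). Its log2 fold change was 0.43 (SE 0.28, 95% interval -0.22 to 1.04), with an edgeR adjusted p of 0.562, and it was the highest of the 10. Without single livers it ran from 0.28 (LWT liver 1) to 0.63 (LΔRbfox2 liver 2), with an adjusted p above the threshold in each case.

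*Lpcat3* encodes the lysophospholipid acyltransferase that puts polyunsaturated acyl chains into phosphatidylcholine and phosphatidylethanolamine and is a known target of LXR. It was at 37.7, 35.7, 42.9 and 47.2 CPM in LWT livers and at 32.9, 47.7, 34.4 and 29.7 CPM in LΔRbfox2 livers. LΔRbfox2 livers 1, 3 and 4 were below every LWT liver, and LΔRbfox2 liver 2 was the highest of the 8. *Lpcat3* had a log2 fold change of -0.18 (SE 0.19, 95% interval -0.61 to 0.22), with an edgeR adjusted p of 0.683. Leaving out LΔRbfox2 liver 2 gave -0.34, LΔRbfox2 liver 4 gave -0.089 and LWT liver 4 gave -0.10. *Lpcat3* shares 10.2% of its exon bases with *Emg1* on the opposite strand, and the strand setting of the counting is not given, so reads there may belong to either gene.

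*Mboat7* encodes the acyltransferase that places arachidonate on phosphatidylinositol, and a variant near the human gene is linked to fatty liver disease. It was at 17.1, 13.0, 17.2 and 19.4 CPM in LWT livers and at 14.8, 17.3, 10.7 and 14.2 CPM in LΔRbfox2 livers. The genotypes interleaved, with the lowest value in LΔRbfox2 liver 3 and the highest in LWT liver 4. The log2 fold change was -0.22 (SE 0.20, 95% interval -0.66 to 0.22), with an edgeR adjusted p of 0.636. It was -0.14 without LWT liver 4 or LΔRbfox2 liver 3 and -0.33 without LΔRbfox2 liver 2. Other overlaps with genes on the opposite strand covered at most 7.65% of a member's exon bases (*Pcyt1a* with *Slc51a*), and *Pemt*, *Pcyt2* and *Lpin1* had none.

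**Figure D2:**
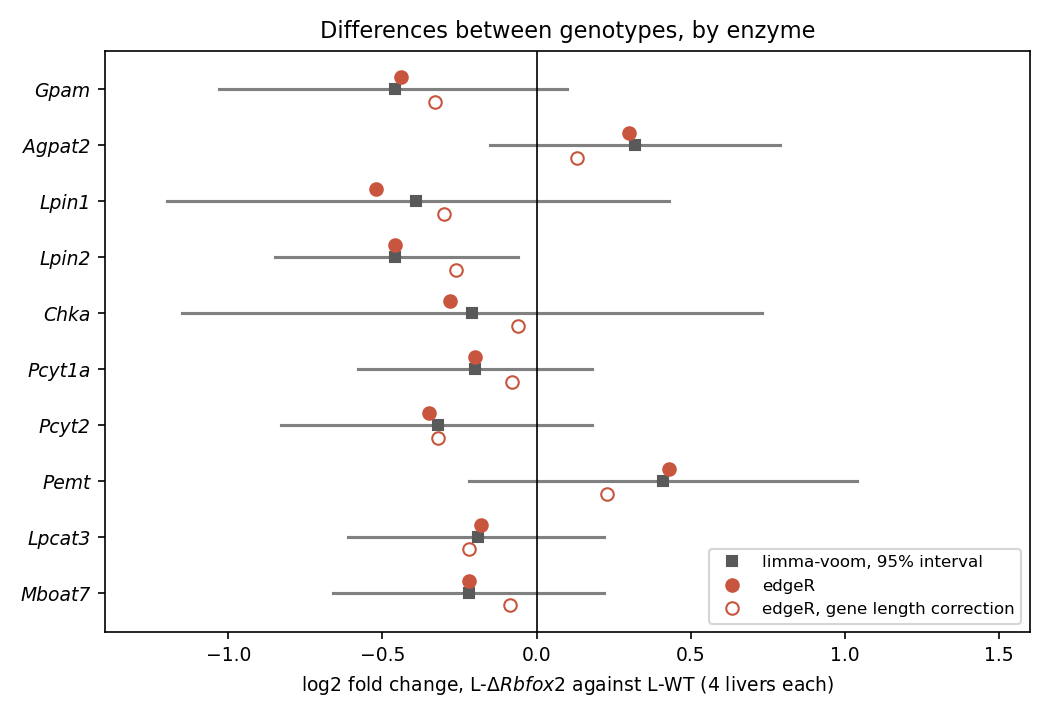
Log2 fold change of each enzyme, LΔRbfox2 against LWT (4 livers each), with grey squares and lines for limma-voom and its 95% interval, filled circles for edgeR and open circles for edgeR after the gene length correction. The *Lpin2* interval, -0.85 to -0.06, is the one that leaves out 0, and *Pemt* and *Agpat2* lie to the right of 0.

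Levels of different genes were compared per kb of annotated exon. In LWT livers *Pemt* (61.7 ± 16.1 CPM per kb), *Pcyt2* (48.0 ± 13.3) and *Agpat2* (47.3 ± 11.1; SD, n = 4 throughout) were highest, and their ranges overlapped. *Lpin2* followed at 26.8 ± 3.91 CPM per kb, below each of those in every liver. *Lpcat3* (12.5 ± 1.6), *Lpin1* (11.7 ± 5.44) and *Gpam* (10.5 ± 2.56) overlapped with each other and lay below *Lpin2*. *Pcyt1a*, at 6.42 ± 0.787 CPM per kb, was below *Gpam* in every LWT liver and above *Chka* (2.25 ± 1.42) and *Mboat7* (2.0 ± 0.320), which overlapped. The enzyme called rate-limiting for the CDP-choline route was thus low among the members by mRNA per exon length. *Agpat2* was above *Pcyt2* in 2 of the 4 LWT livers and in all 4 LΔRbfox2 livers. The order depends on the length used. Per kb of the mRNA with the longest coding sequence, the LWT mean of *Lpin2* (78.7 ± 11.5) was above that of *Agpat2* (67.6 ± 15.9), with overlapping spreads, while *Pemt* (135 ± 35.3) again had the highest mean and *Mboat7* (5.79 ± 0.927) the lowest. By that length *Pcyt2* had a higher mean than *Agpat2* in both genotypes. The values were 111 ± 30.8 in LWT livers, and 87.1 ± 14.2 against 83.3 ± 14.5 in LΔRbfox2 livers. *Chka* (11.6 ± 7.36) was then above *Pcyt1a* (9.94 ± 1.22) by mean in LWT livers. Summed over the 10 members, the level was 229 ± 5.37 CPM per kb of exon in LWT and 235 ± 18.9 in LΔRbfox2 livers (exact two-sided permutation p = 0.571).

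Ratios between members were taken within each liver, where the scaling of the library has no part. A difference that varies with exon length remains in a ratio. The log2 ratio of *Pemt* to *Pcyt1a*, the methylation against the CDP-choline route per kb of exon, was 2.96, 3.83, 3.30 and 2.85 in LWT livers and 3.90, 2.79, 4.22 and 4.45 in LΔRbfox2 livers. LΔRbfox2 livers 1, 3 and 4 were above every LWT liver and LΔRbfox2 liver 2 was below them all. The difference in means was 0.60, from 3.24 ± 0.44 to 3.84 ± 0.74, and the exact two-sided permutation test gave p = 0.229 (0.914 after Benjamini–Hochberg adjustment over 4 ratios). Leaving out single livers gave 0.40 (without LΔRbfox2 liver 4) to 0.95 (without LΔRbfox2 liver 2). *Pemt* has 2104 bases of exon and *Pcyt1a* 7412, and the differences of all genes varied with exon length, as given below. After the gene length correction the log2 fold changes were 0.23 for *Pemt* and -0.078 for *Pcyt1a*, against 0.43 and -0.20 before. The ratio itself was not corrected for length. The other ratios differed less. Differences in the mean log2 ratio were 0.12 for *Pcyt1a* to *Pcyt2* (exact permutation p = 0.686), 0.074 for *Lpin1* to *Lpin2* (p = 0.914) and 0.04 for *Lpcat3* to *Mboat7* (p = 0.771), each with an adjusted p of 0.914. The log2 ratio of *Pcyt1a* to *Pcyt2* had an SD of 0.41 among LWT livers and 0.04 among LΔRbfox2 livers, the tightest value of any ratio, and this difference in spread was not tested.

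The differences of all genes varied with exon length, and the members are set beside their length classes here, without a test of the members against length. Among 3746 tested genes with under 2500 bases of exon, 27.0% had a log2 fold change below 0 and the median was 0.28. *Pemt* (2104 bases) and *Agpat2* (2130 bases), the members that were higher, belong to this class. The share below 0 was 51.1% among 4713 genes of 2500 to 5000 bases, with *Lpcat3* and *Pcyt2*, and 66.8% among 4134 genes of 5000 to 10000 bases, with *Gpam*, *Lpin1*, *Mboat7* and *Pcyt1a*. It was 77.2% among 1213 genes of 10000 bases or more, with *Chka* and *Lpin2*, and their median was -0.23. After each library was corrected for gene length, the class medians lay between -0.03 and -0.02. The log2 fold change was then 0.23 for *Pemt*, 0.13 for *Agpat2* and -0.26 for *Lpin2*, each smaller than before and in the same direction. It was also nearer 0 for *Gpam* (-0.33), *Lpin1* (-0.30), *Mboat7* (-0.087), *Pcyt1a* (-0.078) and *Chka* (-0.059), but hardly moved for *Pcyt2* (-0.32) and was larger for *Lpcat3* (-0.22). All 8 members below 0 stayed below 0, and no member kept an unadjusted p under 0.05.

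**Figure D3:**
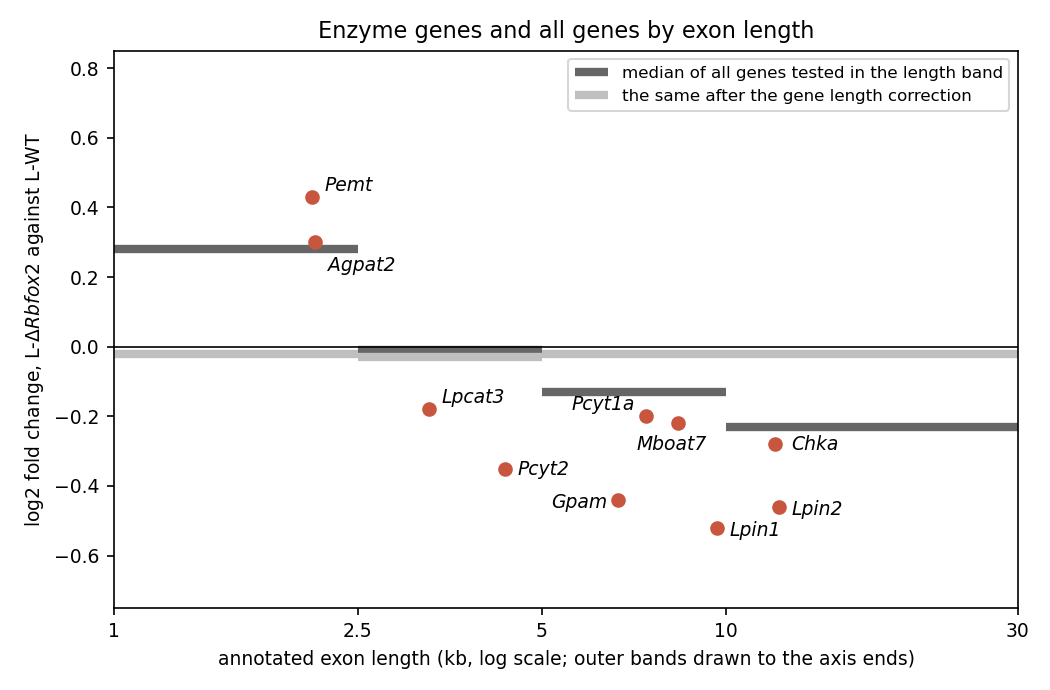
Log2 fold change (LΔRbfox2 against LWT) against annotated exon length in kb (log scale), with red points for the 10 enzymes, dark bars for the median of all genes tested in each length class and pale bars for that median after the gene length correction. The dark bars go from 0.28 in the shortest class to -0.23 in the longest, and the enzymes at 2104 and 2130 bases are the ones above 0.

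The members followed the leading axis of variation of all genes, which held 54.1% of the variance and along which the genotypes overlapped. LWT livers 1 and 4 lay at one end (-0.50 and -0.46), LΔRbfox2 livers 3 and 4 at the other (0.39 and 0.47), and LΔRbfox2 liver 2 (-0.30) on the side of the first. LΔRbfox2 liver 1 (0.133) lay between LWT livers 3 (0.033) and 2 (0.231). Over the 8 livers, Pearson's r with this axis was 0.96 for *Pemt* and 0.94 for *Agpat2* (Spearman's rho 0.95 and 0.90; permutation p = 5.21e-04 and 0.00109, adjusted over 10 members 0.00364 for both). It was -0.95 for *Pcyt2* (rho -0.90, permutation p = 7.44e-04, adjusted 0.00364). Leaving out the 2 livers farthest from the median of the axis gave r of 0.97, 0.83 and -0.90. For the other members r lay between -0.82 (*Mboat7*) and -0.36 (*Chka*). The axis was drawn from all genes, members included, and 46.2% of the 13856 genes had an absolute r of at least 0.76. That limit was set from the members' own values so that 9 of the 10 reach it. Their share therefore cannot be compared with that of all genes. The median absolute r of all genes was 0.72, and the share at 0.94 or more was not computed. Without LΔRbfox2 livers 3 and 4, the log2 fold change was 0.089 for *Pemt* and 0.04 for *Agpat2*, against -0.39 for *Lpin2*.

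**Figure D4:**
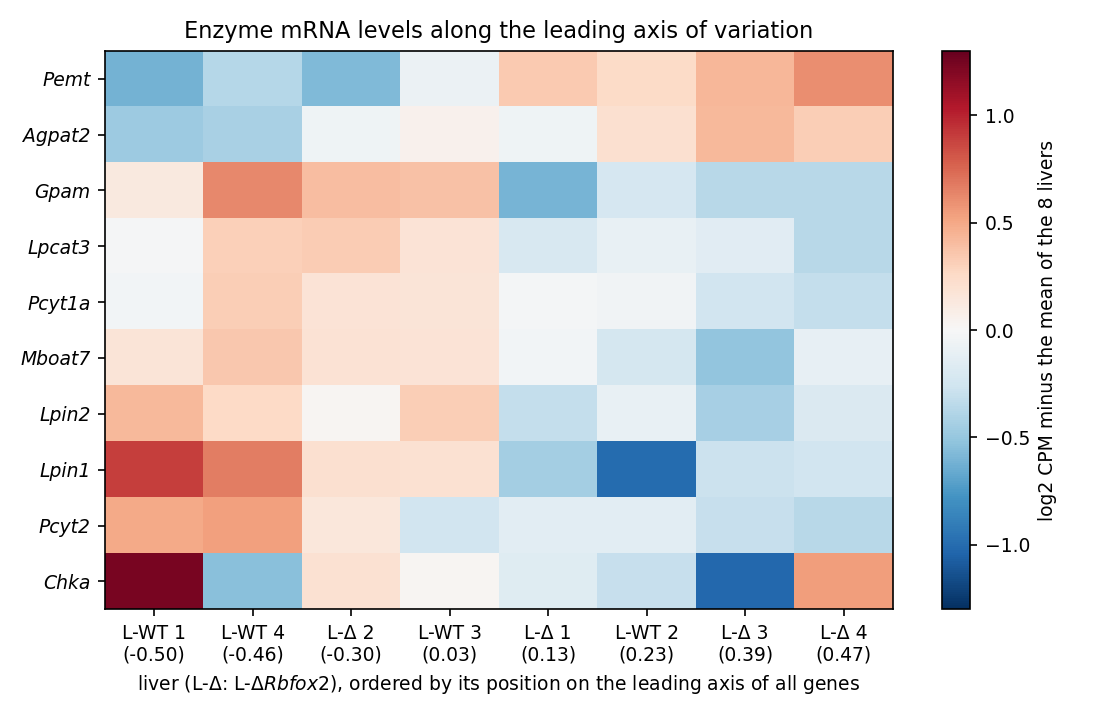
Log2 CPM of each enzyme minus its mean over the 8 livers (colour scale, red higher and blue lower), with livers ordered by their position on the leading axis of all genes, given in parentheses. *Pemt* and *Agpat2* go from blue to red along the axis (r of 0.96 and 0.94) and *Pcyt2* from red to blue (r of -0.95). LΔRbfox2 livers 1 and 2 stand among the LWT livers.

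Between members, 27 of 45 pairs had a positive r over the 8 livers and 18 a negative one. *Lpcat3* and *Gpam*, which act at different steps, went together most closely (r = 0.93, permutation p = 0.00126, adjusted over 45 pairs 0.0318, and rho = 0.95, adjusted 0.0513). *Pcyt2* and *Agpat2* went in opposite directions (r = -0.93, permutation p = 0.00141, adjusted 0.0318, and rho = -0.90, adjusted 0.0685). *Lpcat3* and *Pcyt1a* varied in the same direction (r = 0.91, permutation p = 0.0027, adjusted 0.0406, and rho = 0.83, adjusted 0.0989). Without the 2 livers farthest from the median of the first gene, these r values were 0.87, -0.73 and 0.85. No pair passed the adjustment by both measures, and correlations within a genotype were not tested. The genes of these 3 pairs all had an absolute r of at least 0.76 with the leading axis, the limit set from the members' own values. Of all genes, 46.2% reached it. The permutation test takes no account of such shared variation, and the share of all gene pairs with r this high was not computed.

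The other genes of these pathways, 58 from lists of the same enzymatic steps, gave 52 that could be tested, of which 23 had a log2 fold change above 0 and 29 below, with a median of -0.07. None passed the adjusted threshold, and 3 of the 52 had an unadjusted p under 0.05, beside the 9.79% of all genes. *Ptpmt1*, the mitochondrial phosphatase that makes phosphatidylglycerol for cardiolipin, was at 33.2, 51.7, 33.3 and 28.7 CPM in LWT and 55.4, 46.4, 84.1 and 78.4 CPM in LΔRbfox2 livers (log2 fold change 0.85). *Pnpla7*, a lysophospholipase, was at 57.8 to 94.0 CPM in LWT and 82.7 to 132 CPM in LΔRbfox2 livers (0.57). *Pla2g6*, a calcium-independent phospholipase A, was at 21.2 to 40.7 CPM in LWT and 10.4 to 27.6 CPM in LΔRbfox2 livers (-0.77). In all of them LΔRbfox2 liver 2 lay within the LWT range, and each had an adjusted p of 0.504 in edgeR.

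By enzymatic step, the lists held both directions. Of 8 phosphatidate phosphatases and diacylglycerol acyltransferases, 7 were below 0, with a median of -0.15 and *Lpin1* the lowest in edgeR. Of 10 glycerol-3-phosphate and lysophosphatidate acyltransferases, 7 were below 0 (median -0.16), with *Gpat2* the lowest at -0.63 and *Agpat5* the highest at 0.36. In the CDP-choline route 4 of 7 tested genes were below 0 (median -0.12), and *Chpt1*, which joins the head group to diacylglycerol, had the highest value, 0.42. In the CDP-ethanolamine route *Pcyt2* and *Selenoi* had the lowest log2 fold change, -0.35 each, and *Etnppl*, which breaks down phosphoethanolamine, the highest, 0.44. LΔRbfox2 liver 1 stood alone for *Etnppl*, at 459 CPM, and the other LΔRbfox2 livers (156, 167 and 162 CPM) were below the LWT mean of 174 CPM. Of 5 tested acyl-chain remodelling genes, 4 were below 0 (median -0.18). Besides *Lpin2*, no gene of these 5 lists had an unadjusted p under 0.05, and none passed the adjusted threshold. Among the remaining steps, 3 of 4 genes of phosphatidylethanolamine methylation and serine exchange were above 0 (median 0.14), with *Pemt* the highest and *Pisd*, which makes phosphatidylethanolamine in mitochondria, the lowest at -0.32. Phospholipases and lysophospholipases were divided, with 6 of 12 below 0 (median 0.06), as were the genes of ether lipid synthesis, with 2 of 4 below 0, and those of CDP-diacylglycerol, phosphatidylinositol and cardiolipin, with 3 of 7 below 0 (median 0.01).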

How the data were processed

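The authors extracted RNA from flash-frozen livers, enriched poly(A) RNA, prepared libraries with the NEBNext Ultra II kit and sequenced paired-end reads. Per the submitters' processing notes, CASAVA 1.8.4, TopHat2 2.0.11 and featureCounts were used with GRCm38 (mm10). The authors deposited whole-number counts of reads per gene, without normalization. The strand, multi-mapping and pair settings of featureCounts are not given in the sources used here. All columns were matched to livers by the labels (0 columns left over). Whether mice shared a litter or a day is not stated, so p-values measure the spread between these livers.

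The 10 members and all gene lists were chosen with earlier results of these data known. Gene symbols, positions and exon lengths (union of annotated exons) came from GENCODE M21, which holds 45143 of 46078 identifiers. In R 4.3.3 with edgeR 4.0.16, filterByExpr (minimum count 10, minimum total 15) kept 13856 genes, TMM scaled the libraries, and glmQLFit and glmQLFTest compared genotypes with no other term. CPM values use the TMM-scaled library sizes. Standard errors and 95% intervals are from limma-voom (limma 3.58.1). Log2 CPM used a prior count of 2 and ratios a prior count of 0.5. Permutation tests were exact and two-sided. The fit was tested on simulated data. Those counts were drawn independently for each gene, without shared variation between genes or an effect of exon length, so the test does not cover these features. No libraries were copies of each other, since counts of replicates differed with a chi-square of at least 97.8 per degree of freedom. The genes named are the members, *Rbfox2*, other listed genes with an unadjusted p under 0.05, genes at the ends of a list, and the gene whose log2 CPM followed each member most closely. Genes that overlap a member and markers at 0 or with an unadjusted p under 0.05 are also named, chosen after their values were seen. In the marker and step lists, counts are of the genes tested.

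Alternatives were DESeq2 1.42.0 size factors and test, upper-quartile factors, limma-voom, other filters, robust estimation, the replicate number as a block, lowess corrections (span 0.3) for GC content and gene length, 1 surrogate variable (sva 3.50.0), a prior count of 10 in ratios, and each liver left out. The gene length correction alone and the fit without LΔRbfox2 livers 3 and 4 were added after seeing the data.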

Additional observations from a re-analysis of the deposited data

How the results depend on the processing

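Of 210 values for members under alternatives, 205 kept their direction and side of the adjusted threshold, and no member had an adjusted p of at most 0.05 under any of them. Under every alternative but the DESeq2 test, no gene of all those tested passed that threshold, so the count mainly records direction. Reversals came with 1 surrogate variable, where the log2 fold change was -0.05 for *Pemt*, 0.00089 for *Lpcat3*, 0.021 for *Chka* and 0.10 for *Lpin1*, and the members' median was -0.011, and for *Chka* without LWT liver 1 (-0.52 to 0.23 as livers were left out). The cause was not tested. With the surrogate variable, the GC content and gene length corrections, gene length alone, the replicate block with or without those corrections, or without LΔRbfox2 livers 3 and 4, 0 members had an unadjusted p under 0.05, and leaving out single livers gave 0 to 3 (2 without LWT liver 2 and 3 without LΔRbfox2 liver 2). The count over all genes rose in these last fits as well. It was 1102 higher and 254 lower of 13856 genes in the main fit. Without LWT liver 2 it was 1910 higher and 621 lower of 14136, and without LΔRbfox2 liver 2 it was 2344 higher and 1131 lower of 14005. The other pathway genes gave 5 with DESeq2, 5 with the gene length correction and 0 without LΔRbfox2 livers 3 and 4, and 1 to 14 as single livers were left out (8 without LWT liver 2, 14 without LΔRbfox2 liver 2 and 1 without LΔRbfox2 liver 4). These counts moved with those of all genes. Of all genes, 82 were higher and 89 lower of 14602 without LΔRbfox2 livers 3 and 4, and 282 and 122 of 14307 without LΔRbfox2 liver 4.

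Ratio differences ran, as livers were left out, from 0.40 to 0.95 for the ratio of *Pemt* to *Pcyt1a*, from -0.038 to 0.28 for the ratio of *Pcyt1a* to *Pcyt2* (lowest without LWT liver 1), from -0.22 to 0.24 for *Lpin1* to *Lpin2* (lowest without LWT liver 2) and from -0.075 to 0.13 for *Lpcat3* to *Mboat7* (lowest without LΔRbfox2 liver 3, with -0.014 without LWT liver 1 and -0.0015 without LΔRbfox2 liver 2). Deviations from the genotype mean over all genes gave r of 0.127, -0.613, 0.122 and -0.514 between same-numbered livers. These values cannot show whether such livers shared a litter, a day or a batch. With the replicate block the log2 fold change was 0.42 for *Pemt*, 0.32 for *Agpat2* and -0.46 for *Lpin2*. Depth does not limit these genes, but 4 livers a genotype left 95% intervals that reach from -1.20 to 1.04.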

Other observations

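For each member, the gene among all 13856 tested whose log2 CPM was most like it over the 8 livers was found by Pearson's r, as a description. It was *Shc1* for *Gpam* (0.972), *Scfd1* for *Agpat2* (0.99), *Hap1* for *Lpin1* (0.965), *Bbs2* for *Lpin2* (0.993), *Rad1* for *Chka* (0.955), *Med16* for *Pcyt1a* (0.977), *Ring1* for *Pcyt2* (0.995), *Arel1* for *Lpcat3* (0.99) and *Eif4ebp2* for *Mboat7* (0.991). For *Pemt* it was *Gm6576* (0.998), a processed pseudogene. No member had another member as its closest gene. High values of r over 8 livers are common in these data.

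Genes of neighbouring programs gave these values, beside the 51.6% of all genes with a log2 fold change below 0. Of 15 circadian clock genes, 14 had a log2 fold change below 0 (median -0.39), with *Per3* the lowest at -1.32 and *Nr1d2* the highest at 0.40. The summed level of the clock genes was 336 to 589 CPM in LWT and 323 to 353 CPM in LΔRbfox2 livers. Of 9 tested lipogenic genes linked to SREBP1 and LXR, 5 were below 0 (median -0.03), with *Srebf1* the lowest at -0.96 and *Thrsp* the highest at 0.61. Of 10 fasting genes linked to PPAR-alpha, 9 were below 0 (median -0.15), with *Pdk4* the lowest at -0.93. None of these genes passed the adjusted threshold or had an unadjusted p under 0.05.

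Marker lists of other cells gave these summed levels. Endothelial markers were at 62.2 to 80.6 CPM in LWT and 51.1 to 69.5 CPM in LΔRbfox2 livers, stellate markers at 62.0 to 120.4 and 78.3 to 121 CPM, cholangiocyte markers at 14.6 to 25.8 and 16.4 to 60.9 CPM, and leukocyte markers at 2.65 to 4.05 and 1.75 to 4.16 CPM. Adipocyte markers were at 0.0784 to 2.15 and 0.0685 to 0.989 CPM, with *Lep* at 0 in every liver, and pancreas markers at 3.53 to 4.66 and 3.04 to 9.88 CPM, with *Prss2*, *Cpa1* and *Ctrb1* at 0. The Kupffer markers *Clec4f* and *Csf1r* had an unadjusted p under 0.05 in edgeR and were lower in LΔRbfox2 livers, as held for 1.83% of all genes. The part of these cells in the members' values was not tested.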
